A study of Rattus norvegicus with 16 samples.

Results

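Prl, Gh1, Cga, Fshb, Lhb and Tshb encode the hormones, or hormone subunits, of the anterior pituitary cells other than corticotropes. They were followed in isolated rat corticotropes by taking, for each symbol in the array annotation, the probe set that carries that symbol alone. Each of the 6 genes had exactly 1 such probe set, and they form 6 of the 14557 genes measured. Pomc, the ACTH precursor gene of the corticotropes themselves, is given beside them.

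The cells came from pituitaries of 21-day-old Wistar rats, dispersed with collagenase, cultured, and pulled out on beads with an antibody against the CRH receptor CRHR1, per the labels' protocols; the series' design text names an anti-CRH antibody instead. Of the 16 arrays, 4 were from cells given eNampt (extracellular nicotinamide phosphoribosyltransferase, an adipokine), 4 from cells given CRH (corticotropin-releasing hormone), 4 from cells given the cytokine IL-6 and 4 from control cells. All groups shared the medium, DMEM/F12 containing FBS at 10% and FGF at 0.05 µg/l. Ligands acted for 24 h, the labels state no dose, and the control titles state no time. The arrays were made from 5 ng of RNA each. The labels leave unsaid whether the 4 arrays of a group stem from different animals or cultures, so a p-value reflects only how far these samples spread, possibly for technical reasons.

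Each hormone cell of the anterior pituitary makes its own product: lactotropes prolactin, somatotropes growth hormone, thyrotropes thyrotropin, gonadotropes luteinizing and follicle-stimulating hormone. Prolactin and growth hormone are related single-chain proteins. Thyrotropin, luteinizing hormone and follicle-stimulating hormone are pairs of chains that share the alpha subunit made by Cga, while the beta subunit (Tshb, Lhb or Fshb) gives each its identity. The factor POU1F1 is needed for somatotropes, lactotropes and thyrotropes, dopamine restrains Prl through the receptor Drd2, and cyclic AMP signals act on Cga through CREB-type elements.

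The promoter windows of the bright Prl and Cga and of the dim Tshb are shown first, because factors such as those named above act next to a gene's start, and these genes lie at both ends of the range measured here. RefSeq promoters (build GRCr8, 300 bases from 250 before to 50 after the gene's listed start) were found for 4 of the 6 genes. In the sequences below, 5′ to 3′ on the gene's strand, capitals mark matches on either strand to a POU1F1-type core (ATGNATA, or TATNCAT on the other strand), to a CREB-type element (TGANGTCA or its reverse, TGACNTCA) and to the TATA motif TATAAA (or TTTATA).
Prl, chr17:38298168-38298467, minus strand: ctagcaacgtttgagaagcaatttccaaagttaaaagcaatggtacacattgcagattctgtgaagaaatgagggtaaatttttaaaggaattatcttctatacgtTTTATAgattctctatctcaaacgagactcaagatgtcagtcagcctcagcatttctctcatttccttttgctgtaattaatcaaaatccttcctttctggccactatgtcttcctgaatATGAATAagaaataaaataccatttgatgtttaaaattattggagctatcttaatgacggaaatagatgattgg
Cga, chr5:54283090-54283389, plus strand: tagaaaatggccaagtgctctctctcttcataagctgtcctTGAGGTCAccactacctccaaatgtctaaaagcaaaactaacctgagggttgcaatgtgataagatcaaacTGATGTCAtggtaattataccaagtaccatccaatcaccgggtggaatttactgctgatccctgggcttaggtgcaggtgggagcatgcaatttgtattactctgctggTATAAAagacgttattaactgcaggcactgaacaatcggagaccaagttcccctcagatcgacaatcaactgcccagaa
Tshb, chr2:192918005-192918304, minus strand: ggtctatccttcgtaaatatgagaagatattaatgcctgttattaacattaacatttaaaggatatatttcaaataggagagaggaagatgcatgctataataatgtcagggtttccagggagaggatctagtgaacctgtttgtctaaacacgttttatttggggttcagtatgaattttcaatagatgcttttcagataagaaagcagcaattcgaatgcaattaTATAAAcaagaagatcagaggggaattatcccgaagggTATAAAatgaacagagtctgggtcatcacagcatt
The POU1F1-type core was present once in the Prl window and in neither of the other windows. The CREB-type element had 2 matches in Cga and 0 in the other windows. The TATA motif had 1 match in Prl, as TTTATA at -144 from the listed start. It had 1 match in Cga, at -29, and 2 in Tshb, at -23 and at 16, the last being after the start. Among all 33365 promoter windows of this length, 9.88% held the POU1F1-type core, 10.1% the CREB-type element and 14.2% the TATA motif on either strand. These matches are letters in a window and say nothing of what is bound there.

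The hormone genes covered nearly the whole brightness range of the arrays. Values are log2 levels from RMA, and ranks and percentiles are taken among the 14557 genes. Probe sets differ in how well they bind their target, so a percentile describes the brightness of a probe set and is no measure of how many transcripts were present. In these bulk samples, moreover, fewer cells of a type and less RNA per cell cannot be told apart. Averaged over the 16 arrays, Prl was the brightest gene of all (mean 10.78), ahead of Tagln at 10.24 and Rpl34 at 10.17, while Cga (7.73) lay at percentile 98.63 and Gh1 (5.54) at percentile 90.52. The beta subunits were dim, with Lhb at percentile 57.77 (2.59), Fshb at percentile 43.99 (2.05) and Tshb at percentile 13.68 (1.41). Pomc averaged 8.15, at percentile 99.17 and rank 122, against rank 201 for Cga.

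**Figure D1:**
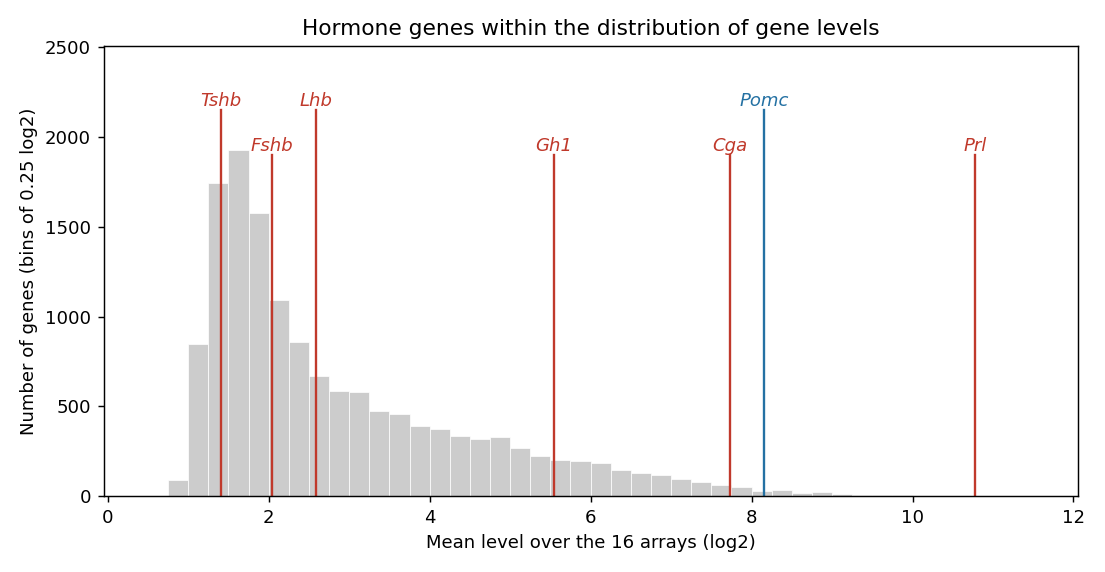
Histogram of the mean log2 level of 14557 genes over the 16 arrays (x axis, log2; y axis, number of genes per bin of 0.25), with vertical lines at the 6 hormone genes in red and Pomc in blue. Prl at 10.78 stands at the extreme right, Cga at 7.73 and Gh1 at 5.54 in the upper tail, and Lhb, Fshb and Tshb within the bulk of dim genes.

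Prl, the lactotrope hormone gene, was at the top of every array. It read 10.41, 10.94, 10.92 and 10.78 on the eNampt arrays and 10.93, 10.81, 10.98 and 11.06 on the CRH arrays. The IL-6 arrays gave 10.12, 10.91, 10.71 and 10.80, and the control arrays 10.86, 10.81, 10.52 and 10.93. All 16 values fell within 0.94 log2, and the 4 groups overlapped. Prl ranked 1 on 15 of 16 arrays and 3 on IL-6 array 1, and it lay at most 1.10 below the highest value of its array. The group means were 10.76 ± 0.25 with eNampt, 10.95 ± 0.10 with CRH, 10.64 ± 0.35 with IL-6 and 10.78 ± 0.18 in control (SD, n = 4 each). The pooled SD within groups, 0.24, was below the median SD of 0.44 of the 144 genes of like level. Whether a probe set this near the top of the scale could still register a rise was not tested.

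Gh1, the growth hormone gene of somatotropes, was bright on nearly all arrays and varied far more than Prl. Its values were 6.12, 6.02, 5.37 and 5.78 with eNampt and 5.53, 6.07, 4.34 and 6.36 with CRH. With IL-6 they were 5.78, 5.19, 5.81 and 5.83, and in control 6.07, 6.05, 2.85 and 5.49. A single array in each of the CRH and control groups lay well below its group: CRH array 3, and control array 3, where Gh1 dropped to percentile 67.05. On the other 15 arrays Gh1 stood above the 80th percentile of genes. The means were 5.82 ± 0.33 with eNampt, 5.57 ± 0.89 with CRH, 5.65 ± 0.31 with IL-6 and 5.12 ± 1.53 in control (SD, n = 4 each), and the pooled SD of 0.92 compared with a median of 0.77 among 891 genes of like level.

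Cga, which makes the alpha subunit shared by the glycoprotein hormones of thyrotropes and gonadotropes, was among the brightest 5% of genes on 15 of 16 arrays. It read 8.39, 8.20, 7.24 and 7.77 with eNampt and 8.42, 8.74, 6.92 and 7.26 with CRH. With IL-6 it read 8.33, 7.57, 7.91 and 8.11, and in control 7.86, 7.38, 5.53 and 8.08. Control array 3 was the lowest here too, at percentile 94.61, and CRH array 3 the next lowest. Array 3 was the lowest of its group for both Gh1 and Cga in the eNampt, CRH and control groups, and array 2 in the IL-6 group. The means were 7.90 ± 0.51 with eNampt, 7.83 ± 0.88 with CRH, 7.98 ± 0.32 with IL-6 and 7.21 ± 1.16 in control (SD, n = 4 each). Pomc had a higher percentile than Cga on 14 of the 16 arrays.

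The beta subunits, without which no glycoprotein hormone is complete, were dim. Lhb, the beta chain of luteinizing hormone, read 2.25, 2.63, 2.24 and 2.35 with eNampt and 2.55, 2.79, 2.45 and 3.49 with CRH. With IL-6 it read 2.82, 2.59, 2.47 and 2.73, and in control 2.49, 2.70, 2.48 and 2.47. It lay above the array's median of all probe sets on all 16 arrays, by 0.33 to 1.48 log2, with CRH array 4 the highest. Fshb, the beta chain of follicle-stimulating hormone, read 1.56, 1.81, 2.36 and 2.28 with eNampt and 1.90, 1.89, 2.34 and 2.15 with CRH. With IL-6 it read 1.98, 1.88, 1.84 and 1.94, and in control 1.83, 1.58, 2.04 and 3.35. Fshb was above the median on 7 of 16 arrays, and control array 4 alone carried it to percentile 77.27.

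Tshb, the beta chain of thyrotropin, was the dimmest of the 6. It read 1.18, 1.29, 1.04 and 1.07 with eNampt and 1.25, 3.65, 1.66 and 1.49 with CRH. With IL-6 it read 1.19, 1.68, 1.28 and 1.11, and in control 1.26, 1.33, 0.95 and 1.15. Only CRH array 2 placed it above the array's median, at percentile 72.35. Its means were 1.15 ± 0.11 with eNampt, 2.01 ± 1.11 with CRH, 1.31 ± 0.26 with IL-6 and 1.17 ± 0.17 in control (SD, n = 4 each). The pooled SD, 0.58, compared with a median of 0.23 among 6183 genes of like level.

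**Figure D2:**
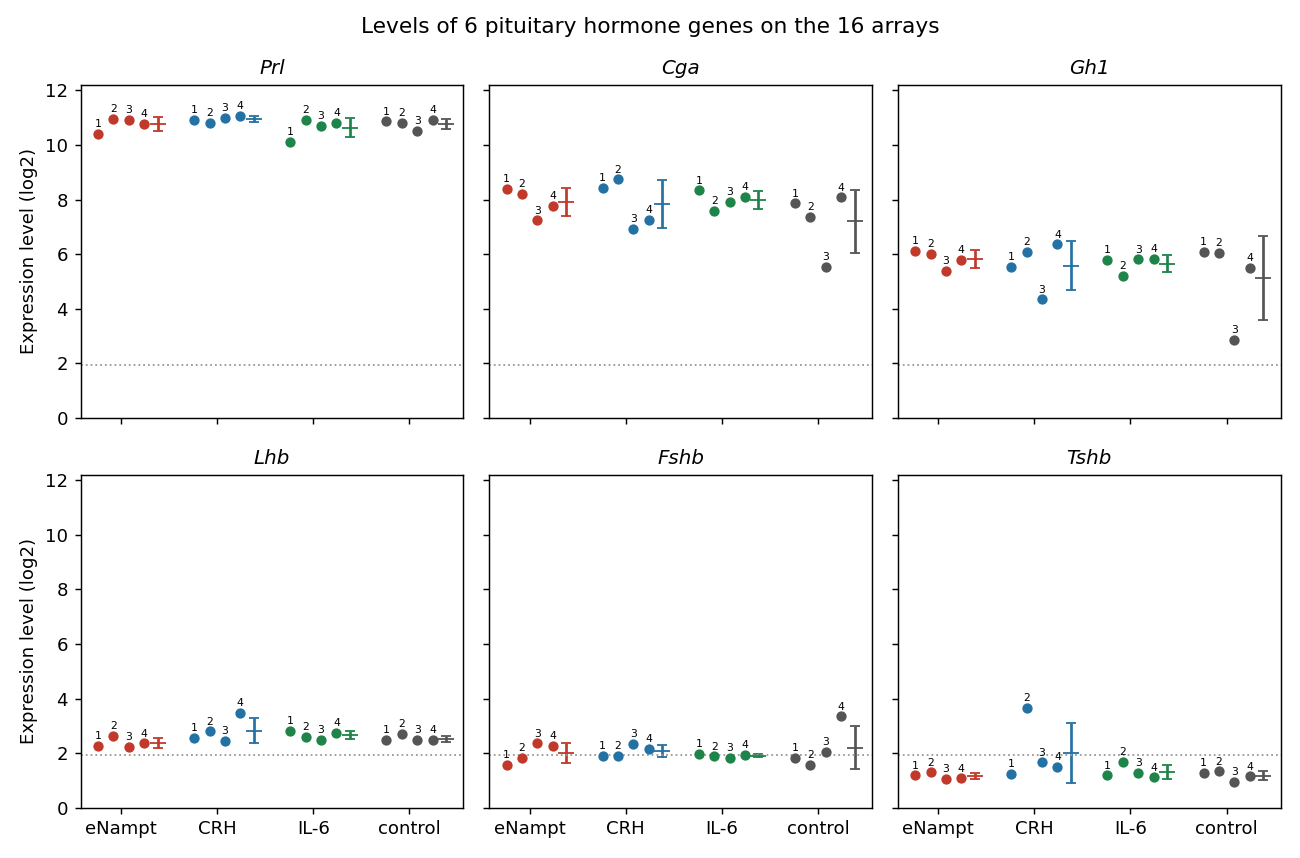
Log2 level (y axis) of the 6 hormone genes on each array, by group (x axis: eNampt, CRH, IL-6, control); points carry the array number, bars to their right show the mean ± SD of 4 arrays, and the dotted line is the mean of the array medians. Prl sits between 10.12 and 11.06 on all arrays, Gh1 and Cga dip on control array 3 to 2.85 and 5.53, and Tshb rises above the line only on CRH array 2, at 3.65.

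To place these dim values, genes known as products of other organs were read in the same way. Of 9 measured genes restricted to other organs, such as insulin and albumin genes, 4 lay above the median of all values (1.95), and their percentiles ran from 9.45 to 56.22. Percentiles are among genes, and 8675 of the 14557 genes lay above this median. A gene can thus lie above it and still be below the middle of the genes. Of 19 measured relatives of the hormone genes, mostly placental members of the prolactin family, 1 lay above that median. Their percentiles ran from 1.15 to 47.13. The gene above the median was Gpha2, which alone set the upper end, and the next was Gphb5 at 25.33. The percentiles of Fshb and Tshb fall inside both ranges, that of Fshb inside the second only because of Gpha2. The percentile of Lhb lies just above the upper end of the first. Prl8a9, a prolactin-family gene singled out after its values were seen, read 5.34 on CRH array 4 and between 0.91 and 1.72 on the other 15 arrays.

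Whether a ligand changed the hormone genes was tested with limma on all 14557 genes, with Benjamini-Hochberg adjustment and a threshold of 0.05. The 3 ligands share the same 4 control arrays, so their comparisons are not independent. None of the 6 genes passed in any comparison. With eNampt, 0 of 6 were called and 0 had an unadjusted p under 0.05, where 0.0137% of all genes were called and 7.55% had such a p. CRH gave 0 of 6 called and 1 with an unadjusted p under 0.05, against 0% and 6.33% of all genes. IL-6 gave 0 and 0 of 6, against 0.00687% and 5.54% of all genes. In no comparison did all 4 ligand arrays lie on one side of all 4 control arrays for a hormone gene, which 2.81% of all genes did upward and 1.33% downward with eNampt, 2.05% and 0.453% with CRH, and 2.41% and 0.756% with IL-6. The median difference of the 6 genes was -0.02 with eNampt, 0.37 with CRH and 0.13 with IL-6, beside 0.06, 0.10 and 0.09 for all genes.

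For Prl the differences from control were small and their intervals narrow. The log2 difference was -0.02 ± 0.18 (SE) with eNampt, 0.17 ± 0.18 with CRH and -0.14 ± 0.18 with IL-6, with limma adjusted p of 0.986, 0.877 and 0.930. The 95% intervals ran from -0.40 to 0.37 with eNampt, from -0.22 to 0.55 with CRH and from -0.53 to 0.24 with IL-6. By level the groups ran CRH, control, eNampt, IL-6, and no neighbours in that order differed beyond their spread.

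The intervals of Gh1 and Cga were wide. Gh1 differed from control by 0.71 ± 0.60 with eNampt, 0.46 ± 0.60 with CRH and 0.53 ± 0.60 with IL-6 (SE; limma adjusted p = 0.802, 0.907 and 0.924). Their direction rested on control array 3, without which the differences were -0.047, -0.30 and -0.22. Cga differed by 0.69 ± 0.52 with eNampt (95% interval -0.42 to 1.80), 0.62 ± 0.52 with CRH (-0.49 to 1.73) and 0.77 ± 0.52 with IL-6 (-0.34 to 1.88), with adjusted p of 0.774, 0.845 and 0.865. Leaving out control array 3 brought these to 0.13, 0.06 and 0.21. By level the groups ran eNampt, IL-6, CRH, control for Gh1 and IL-6, eNampt, CRH, control for Cga, and neither neighbours nor the ends of either order differed beyond their spread.

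Among the beta subunits, Tshb had the largest difference, 0.84 ± 0.38 with CRH (SE; 95% interval 0.02 to 1.67; limma adjusted p = 0.782), and it was the gene with an unadjusted p under 0.05. That difference rests on CRH array 2, without which the difference was 0.30. With eNampt and IL-6, Tshb differed from control by -0.03 ± 0.38 and 0.14 ± 0.38. Lhb differed by -0.16 ± 0.20 with eNampt, 0.29 ± 0.20 with CRH and 0.12 ± 0.20 with IL-6, with limma adjusted p from 0.8288 to 0.9465. Without CRH array 4 the Lhb difference with CRH was 0.067. Fshb differed by -0.19 ± 0.31, -0.13 ± 0.31 and -0.29 ± 0.31, with adjusted p from 0.908 to 0.953. Without control array 4, the high one, the Fshb differences were 0.19, 0.26 and 0.09, so their direction rests on that array.

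**Figure D3:**
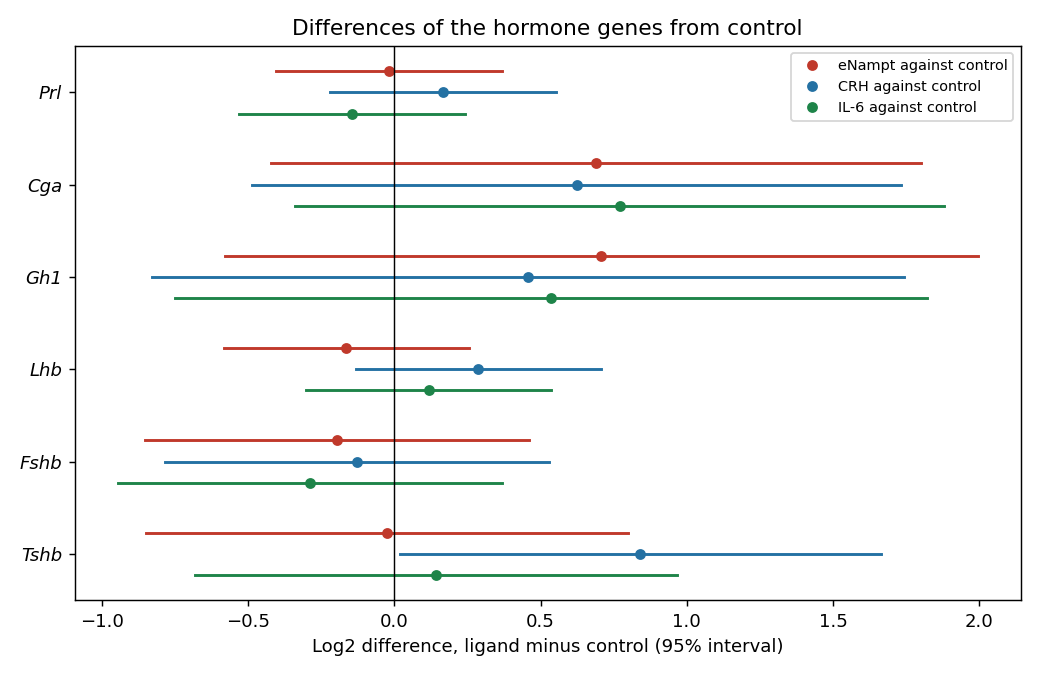
Log2 difference from control (x axis, ligand minus control; points with 95% intervals from limma) of the 6 hormone genes (rows) for eNampt, CRH and IL-6 from top to bottom within each row. Every interval includes 0 except that of Tshb with CRH, which starts at 0.02 and whose adjusted p was 0.782; the Prl intervals are the narrowest and those of Gh1 the widest.

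Between the ligands, 0 of 6 genes were called by limma in eNampt against CRH (0.0137% of all genes were), 0 in eNampt against IL-6 (0.0137%) and 0 in CRH against IL-6 (0%). Unadjusted p under 0.05 occurred for 2 genes in eNampt against CRH, beside 4.93% of all genes, and for 0 in the other pairs, beside 3.37% and 3.97%. No hormone gene kept its 2 groups apart without overlap, which in eNampt against CRH 1.22% of all genes did upward and 1.74% downward, in eNampt against IL-6 1.28% and 1.53%, and in CRH against IL-6 1.33% and 0.989%. The 2 genes with a low unadjusted p were Lhb, at -0.45 ± 0.20 (eNampt minus CRH), and Tshb, at -0.87 ± 0.38, both with an adjusted p of 0.943. The high CRH values behind them were array 4 for Lhb and array 2 for Tshb. By level, CRH was the highest and eNampt the lowest group for both genes, and CRH, eNampt and IL-6 all lay below control for Fshb. No neighbours in these orders differed beyond their spread.

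Pomc is set beside these genes as the product of the cells the selection aimed at. It averaged 8.26 ± 0.27 with eNampt, 8.45 ± 0.22 with CRH, 8.18 ± 0.14 with IL-6 and 7.73 ± 0.36 in control (SD, n = 4 each). Its differences from control were 0.53 ± 0.19, 0.72 ± 0.19 and 0.45 ± 0.19 (SE), with limma adjusted p of 0.557, 0.479 and 0.860, so none was called. The unadjusted limma p was 0.016, 0.0022 and 0.033, where 7.55%, 6.33% and 5.54% of all genes had one under 0.05. In log2 level every CRH array lay above every control array for Pomc, as for 2.05% of all genes, while eNampt and IL-6 overlapped control. By percentile on each array CRH and control overlapped too, at 98.84 to 99.53 with CRH and 97.85 to 99.44 in control.

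Correlations among the 6 genes depended on a few arrays. For Gh1 and Cga over the 16 arrays, r was 0.80 with rho = 0.44, and r fell to 0.46 without control array 3 and to 0.11 without CRH array 3 as well. All 16 points share the same set of arrays and the same normalization, and these coefficients are descriptions. Gh1 and Fshb had r = -0.22 with rho = -0.55, and Lhb and Tshb r = 0.29 with rho = 0.48. Prl correlated with Gh1 at r = 0.12 and with Cga at r = -0.07. Without control arrays 3 and 4, r was 0.48 for Gh1 and Cga, -0.53 for Gh1 and Fshb, -0.52 for Cga and Fshb and -0.49 for Prl and Cga. With Pomc, r was 0.34 for Prl, 0.35 for Gh1 and 0.47 for Cga, and the last 2 became -0.44 and -0.03 without control arrays 3 and 4. Those 2 arrays had 90th percentiles of 4.43 to 4.59, against 5.07 to 5.51 on the other 14. The level of Gh1 followed the array's 90th percentile at r = 0.65, and that of Fshb at r = -0.73. The part of these array differences in the results was not tested.

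Among 8469 other genes above the median level, those whose log2 levels were most like each hormone gene over the 16 arrays were taken by Pearson's r. Gh1 was nearest to Ndufs6 (0.96), which encodes a mitochondrial complex I subunit, to Mif (0.96), the gene of the cytokine macrophage migration inhibitory factor, and to Ift20 (0.94), an intraflagellar transport gene. Over the 16 arrays, rho with Gh1 was 0.68 for Ndufs6, 0.92 for Mif and 0.61 for Ift20. Mif kept r = 0.95 without control arrays 3 and 4. It was lowest on the arrays where Gh1 was lowest: it read 4.90 on CRH array 3 and 4.03 on control array 3, and 6.13 on IL-6 array 2. Cga was nearest to Cox14 (0.95), a cytochrome oxidase assembly factor, Ndufb2 (0.95) and Cox7c (0.94), with r of 0.89, 0.95 and 0.90 without control arrays 3 and 4. For Prl the nearest were Gja4 (0.78), Slc22a12 (0.77) and Shisa8 (0.74), with rho of 0.74, 0.59 and 0.68. These were dim, with means of 2.61, 2.08 and 2.11, and each was lowest on IL-6 array 1, as Prl was.

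**Figure D4:**
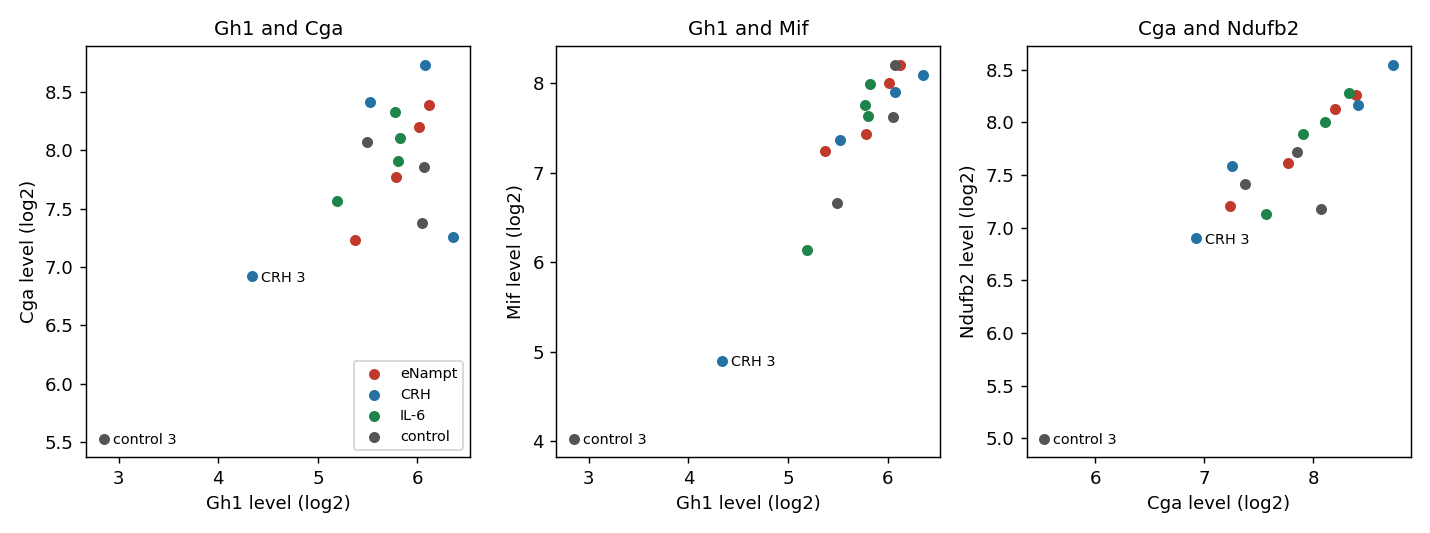
Log2 levels on the 16 arrays of Gh1 against Cga, Gh1 against Mif and Cga against Ndufb2 (x and y axes, log2), coloured by eNampt, CRH, IL-6 and control, with CRH array 3 and control array 3 labelled. The 2 labelled arrays lie lowest on the Gh1 axis, and r of Gh1 and Cga is 0.11 without them; Mif and Ndufb2 were chosen for their correlation with the gene on the x axis.

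The genes nearest to the dim subunits included ones that were high on a single array. Tshb was nearest to Gins2 (0.94), Osbpl10 (0.89) and Rbp2 (0.88), and Gins2 read 3.99 on CRH array 2 against 1.73 to 2.45 elsewhere. Lhb was nearest to Plpp2 (0.87), Mettl25 (0.85) and Mc2r (0.82), and Plpp2 peaked at 5.67 on CRH array 4. Fshb was nearest to Prss30 (0.83), Dph2 (0.82) and Pid1 (0.78), which fell to r of 0.32, 0.52 and 0.29 without control arrays 3 and 4. Over the 16 arrays, rho with Tshb was 0.47 for Gins2, 0.78 for Osbpl10 and 0.28 for Rbp2. With Lhb it was 0.76 for Plpp2, 0.55 for Mettl25 and 0.52 for Mc2r. With Fshb it was 0.33 for Prss30, 0.64 for Dph2 and 0.53 for Pid1.

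The receptors and factors that control the other hormone cells were also read, from lists chosen with earlier results of these data known. Of 21 receptors listed, 15 were measured, and 8 of these lay above the median of all values. The dopamine receptor gene Drd2, found on lactotropes and melanotropes, was bright, with a mean of 6.06 at percentile 93.48. Receptors for thyrotropin-releasing hormone (Trhr, percentile 59.70), the growth hormone secretagogue ghrelin (Ghsr, 44.73) and gonadotropin-releasing hormone (Gnrhr, 18.61) were dimmer. Of the 16 transcription factors listed, 10 were measured, 7 above that median. They included Egr1, the immediate early gene needed for Lhb in mice, at percentile 98.12, Isl1, a factor of gonadotropes and thyrotropes, at 83.46, Gata2 at 61.73 and Foxl2 at 34.07. All 6 genes listed for the activin system, which bears on Fshb, were measured and lay above that median, the lowest at percentile 45.08. Pou1f1, Ghrhr, Nr5a1 and Esr1 had no probe set with their symbol alone and were not analysed here.

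None of these regulators was called by limma in any of the 6 comparisons. The smallest adjusted p against control, 0.626, was that of Adcyap1r1, the receptor gene for the peptide PACAP, which averaged 1.46 ± 0.10 with eNampt and 2.02 ± 0.61 in control (SD, n = 4 each), where array 1 read 2.92 and the other arrays 1.66 to 1.76. Egr1 averaged 7.69 ± 0.24 with IL-6 and 7.05 ± 0.32 in control (SD, n = 4 each), a difference of 0.64 ± 0.18 (SE) with a limma adjusted p of 0.714. Isl1 averaged 5.21 ± 0.60 with IL-6 and 3.86 ± 0.29 in control, a difference of 1.35 ± 0.50 (SE) with a limma adjusted p of 0.860. The other ligands also raised the means, for Isl1 by 1.00 ± 0.50 with eNampt and 0.65 ± 0.50 with CRH (SE). For Egr1 these differences were 0.42 ± 0.18 and 0.44 ± 0.18 (SE). Every eNampt array lay above every control array for Isl1 in log2 level, as for 2.81% of all genes. By percentile these groups overlapped, with eNampt array 2 at 77.74 and control array 3 at 81.38. Drd2 read 6.37, 6.55, 6.91 and 7.30 with IL-6, against 6.30, 3.33, 6.12 and 6.02 in control, a difference of 1.34 ± 0.58 (SE) with an adjusted p of 0.860. For Egr1, Isl1 and Drd2 every IL-6 array lay above every control array in log2 level, as for 2.41% of all genes. The low control array 2 entered the mean of Drd2. By percentile on each array, only Isl1 stayed apart, at 83.12 to 90.14 with IL-6 and 74.99 to 81.38 in control. Egr1 stood at 98.94 on control array 3, against 97.61 to 98.79 with IL-6. Drd2 stood at 96.78 and 96.57 on control arrays 3 and 4, against 94.29 to 95.93 on IL-6 arrays 1 to 3. Trhr averaged 3.34 ± 0.83 with IL-6 and 2.39 ± 0.31 in control (SD, n = 4 each).

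Markers of the cells the preparation could hold were read last. Of the 6 corticotrope markers listed, 3 were measured: Pomc was bright, whereas Tbx19, the corticotrope lineage factor, lay at percentile 20.73 (mean 1.54) and Neurod1 at 10.71 (1.35). Crhr1, the gene of the CRH receptor, had no probe set of its own and was not analysed here. Of the 3 melanotrope markers listed, 2 were measured, and these 2 lay above the median of all values. They were Pcsk2 at percentile 65.95 (mean 3.08) and Drd2, also listed for lactotropes, at 93.48. Fibroblast and mural markers were bright, with 5 of 6 above the median of all values, Col1a1 averaging 6.84 and Col1a2 7.20. Their mean level per array ran from 5.05 to 5.77 with eNampt, 4.85 to 5.57 with CRH, 4.47 to 5.51 with IL-6 and 3.96 to 5.28 in control. Above that median lay 0 of 4 endothelial, 1 of 6 leukocyte, 0 of 1 erythroid and 2 of 3 folliculostellate or stem cell markers. The posterior lobe glial markers, 3 of 3, also lay above it, at percentiles of 42.28, 46.75 and 59.48 among genes. Only the last of these percentiles is above the middle of the genes. No marker of any cell type was called in any comparison, and Dcn, a fibroblast proteoglycan gene, showed a difference of 1.99 ± 0.78 (SE) with eNampt at a limma adjusted p of 0.611, with control array 2 at 1.70 and the other control arrays at 3.75 to 4.81. The part of these cells in the levels of the hormone genes was not tested.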

How the data were processed

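The authors deposited 1 table of log2 expression values per probe set for 16 Affymetrix arrays, for which RMA is named per the submitters' processing notes. Neither the RMA version nor the genome build is given in the sources used here. Coordinates come only from the RefSeq promoter table. Array medians ran from 1.82 to 2.02, and the number of arrays limits the precision. Symbols were updated through Entrez identifiers, genes with several probe sets were given the brightest one, and 14557 genes entered the fit with no filter on dim genes. Groups came from the sample titles. In limma 3.58.1 (R 4.3.3), each group had 1 mean and all 16 arrays shared the spread (12 residual and 2.28 prior degrees of freedom, median residual SD 0.41), with Benjamini-Hochberg adjustment over all genes of a comparison. On simulated data for CRH against control (14557 genes), the fit recovered 47.8% of 67 genes changed 2-fold and 71.6% of 67 changed 4-fold. It recovered 97% of 66 changed 8-fold and called 7 unchanged genes. The simulation changed 200 genes and drew independent normal noise for each gene and array. The real comparison called 0 genes, so these rates do not give the power for the hormone genes. With CRH, the SE of Gh1 was 0.60 and that of Cga 0.52, beside a median of 0.28. The hormone genes, the lists and the alternatives were chosen with earlier results of these data known. The genes named are the 6 hormone genes, Pomc, the 3 genes most like each, and the first and most changed markers of each list. Up to 6 regulators with the largest moderated t are also named. Tagln, Rpl34, Prl8a9, Gpha2 and Gphb5 were named after their values were seen.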

Additional observations from a re-analysis of the deposited data

Results flagged for a closer look

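In 3 of the 24 pairs of hormone gene and group, 1 of the 4 arrays stood apart from the other 3 by more than Dixon's 95% limit. Tshb read 3.65 on CRH array 2, against 1.25 to 1.66 on the other CRH arrays. Gh1 read 5.19 on IL-6 array 2, against 5.78 to 5.83 on the other IL-6 arrays. Lhb read 2.70 on control array 2, against 2.47 to 2.49 on the other control arrays. Chance flags about 1 in 20 such groups, and over all 14557 genes the share was 6.07% in eNampt, 7.06% in CRH, 6.80% in IL-6 and 7.40% in control. The gap of Gh1 on control array 3, at 2.85, did not pass this limit.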

How the results depend on the processing

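No hormone gene was called in any of 95 settings of the comparisons, with a lowest limma adjusted p against control of 0.54. Of 285 recomputed differences, 264 kept their direction and 21 reversed, none of them past the threshold. After repeated quantile normalization, Tshb with eNampt was 0.013 and Prl with CRH was -0.066. Without control arrays 3 and 4, Gh1 was -0.24 with eNampt, -0.49 with CRH and -0.41 with IL-6, and Fshb was 0.30, 0.37 and 0.21. Leaving out 1 array at a time, the differences ran from -0.11 to 0.10 for Prl with eNampt (reversed without eNampt array 1 or control array 1 or 4) and from -0.23 to 0.027 with IL-6 (without IL-6 array 1). For Gh1 they ran from -0.047 to 1.03 with eNampt, -0.30 to 0.87 with CRH and -0.22 to 0.85 with IL-6 (without control array 3). For Fshb they ran from -0.40 to 0.19 with eNampt, -0.33 to 0.26 with CRH and -0.50 to 0.094 with IL-6 (without control array 4). For Tshb with eNampt they ran from -0.10 to 0.027 (without eNampt array 3 or control array 1 or 2). The cause of these reversals was not tested. Among all probe sets, Lhb lay at percentile 65.84. Deviations of arrays with the same number correlated at -0.18 to 0.31 over 24 pairs, 8 of them above 0.1, and no 2 groups had all their pairs above 0.1, so the numbers were not taken as pairs. The arrays numbered 3 of eNampt, CRH and control correlated at 0.23 (eNampt and CRH), 0.31 (eNampt and control) and 0.30 (CRH and control). With the replicate number as a block 0 hormone genes were called, with adjusted p from 0.658 to 0.99. Lhb with CRH was 0.067 without CRH array 4. With 4 arrays a group, the median SE of a difference was 0.28 log2.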
